A study of Homo sapiens with 8 samples.

Results

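The genes described here carry iron into the cell, store it, send it out and sense how much there is. They are 10 genes taken by name, out of the 52719 genes whose transcript levels could be summed: the transferrin receptors TFRC and TFR2, the importer SLC11A2, the ferritin chains FTH1 and FTL, the iron regulatory proteins IREB2 and ACO1, the exporter SLC40A1, the receptor regulator HFE and the ferritin carrier NCOA4. Transcripts of 9 of them were matched to the annotation by identifier. NCOA4 had none matched and was not analysed here. Of the 9, HFE stayed under a mean of 1 TPM, the lowest mean at which a gene was tested, so 8 were tested.

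The cells were SH-SY5Y, an established human neuroblastoma line that is 1 line grown in culture and is used as a model of neurons of the sympathetic lineage. The undifferentiated group was 4 libraries (replicates 17 to 20) and the differentiated group was 4 libraries (replicates 21 to 24) from cells given 1 µM 9-cis retinoic acid, a ligand of the retinoic acid and retinoid X receptors, for 7 days. The culture medium, DMEM/F12 with GlutaMAX and foetal calf serum, is given alike for both, and no time in culture is recorded for the undifferentiated cells, so time and treatment cannot be told apart. Whether replicates came from separate cultures is not recorded either, so each p-value reflects only how much these libraries differ among themselves, possibly for technical reasons. Values are in TPM, a share of each library's transcripts corrected for their length, which keeps no sequencing depth.

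Most iron reaches a cell bound to transferrin, which TFRC takes into endosomes, where the iron is reduced and passes into the cytosol through SLC11A2 (DMT1). Iron that is not used is kept inside ferritin, a hollow shell built from FTH1, the H chain that oxidises iron, and FTL, the L chain that helps it form a mineral core, or it leaves the cell through SLC40A1 (ferroportin). The iron regulatory proteins ACO1 (IRP1) and IREB2 (IRP2) bind hairpins called iron-responsive elements when iron is scarce: bound near the start of an mRNA they block its translation, and bound in the 3′ UTR of TFRC they protect the mRNA from decay. Neurons that make catecholamines need iron for tyrosine hydroxylase, and ferritin, TFRC and ferroportin are widely read as signs of how a cell handles iron.

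The hairpins are shown first, since they are what several members share apart from their function. The transcript sequences of GENCODE 29 (GRCh38) were searched, on the transcript strand, for a C, then 5 bases, then the loop CAGTGN, with all 5 pairs of the upper stem and at least 4 of the 5 pairs of the lower stem able to form, G with T (G with U in the RNA) allowed. The windows of 30 bases below have in capitals the unpaired C and the loop. The first 3 lie in the 5′ UTR and the others in the 3′ UTR.
FTH1 (chr11:61967574-61967603, minus strand): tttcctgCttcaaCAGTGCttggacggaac
FTL (chr19:48965334-48965363, plus strand): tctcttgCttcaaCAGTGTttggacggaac
SLC40A1 (chr2:189580661-189580690, minus strand): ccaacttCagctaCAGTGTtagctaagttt
TFRC element 1 (chr3:196050979-196051008, minus strand): taattatCggaagCAGTGCcttccataatt
TFRC element 2 (chr3:196050575-196050604, minus strand): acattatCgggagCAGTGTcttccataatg
TFRC element 3 (chr3:196050510-196050539, minus strand): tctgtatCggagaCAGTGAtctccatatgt
TFRC element 4 (chr3:196050463-196050492, minus strand): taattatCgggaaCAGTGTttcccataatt
SLC11A2, in the transcript SLC11A2-202 (chr12:50988269-50988298, minus strand): tagccatCagagcCAGTGTgtttctatggt

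FTH1 and FTL carry nearly the same hairpin, and the search found 4 in TFRC. A hairpin with another loop would be missed, so these are matches to the pattern and not a full count of elements. The letters alone were in 80838 of 206534 transcripts (39.1%), and the letters with both stems were in 131 transcripts (0.0634%) of 51 genes, 4 of them members. The SLC11A2 hairpin has 1 unpaired base on the 3′ side of its upper stem. With such a base allowed, 374 transcripts (0.181%) of 160 genes held an element, among them 5 members. Of 91 other iron genes listed below, ALAS2 held the plain form and EPAS1 the form with the extra base. A match describes the letters of the reference and not binding in these cells.

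Of 17077 genes tested with limma, 8761 (51.3%) passed an adjusted p under 0.05, 5791 (33.9%) higher and 2970 (17.4%) lower in differentiated libraries. Since TPM is a share, the split moved with the scaling: 4529 were higher and 4461 lower after median-of-ratios scaling, which took the median over all genes from 0.095 to -0.020 on the log2 scale, and 4173 were higher and 5098 lower after quantile normalization, with a median of -0.068. Undifferentiated replicates 17 and 18 were in lane 7 and all other libraries in lane 8. Differentiated replicate 22 stood apart, and not in the members alone. Its median-of-ratios scaling factor was 0.945, against 1.04 to 1.16 in the other differentiated libraries. Without it, 9724 genes (56.7%) were called. Among the differentiated libraries it was highest for FTH1 and FTL and lowest for TFRC, TFR2, IREB2, ACO1, SLC11A2 and SLC40A1. How often it was highest or lowest over all genes was not counted. Values without it are given for the members it moves most. The retinoid-responsive genes CYP26A1, CYP26B1, RARB and DHRS3 were all higher in differentiated cells.

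Of the 12 sympathetic neuroblastoma markers, 11 averaged 1 TPM or more, and their summed level was 1885 to 1984 TPM in undifferentiated and 1250 to 1450 TPM in differentiated libraries. The 8 fibroblast markers (7 at 1 TPM or more) went from 167 to 178 TPM to 293 to 347 TPM, and the 8 Schwann markers (4 at 1 TPM or more) from 7.91 to 10.7 TPM to 18.6 to 20.1 TPM. The 10 blood markers summed to 3.32 to 4.64 TPM and then 23.3 to 25.1 TPM, with 2 of them, CD68 and CD163, at 1 TPM or more, and 5 under 0.1 TPM in all libraries, 2 of those at 0. Epithelial markers (2 of 6 at 1 TPM or more) summed to 2.90 to 3.82 TPM and 3.76 to 5.41 TPM, and the 5 endothelial markers with values stayed under 0.5 TPM in sum. Of 11 sympathetic markers tested, 8 were called lower and 1 higher, with a median log2 fold change of -1.13. Called higher were 4 of 7 fibroblast, 1 of 4 Schwann and 1 of 2 blood markers tested, and 0 of these were lower. After median-of-ratios scaling 1 blood marker was called higher and 1 lower. Over all genes, 33.9% were called higher and 17.4% lower. The part of these marker shifts in the results below was not tested. In these bulk libraries, fewer cells of a type and less RNA per cell cannot be told apart.

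The comparison asked how the handling of iron, as far as RNA levels show it, differs once SH-SY5Y cells have been differentiated. Both ferritin chains, the exporter SLC40A1 and the regulatory protein ACO1 were higher in differentiated cells, by 1.47 to 1.86 times in mean TPM, and both transferrin receptor genes were lower, TFRC by 33.4% and TFR2 by 38.8%. The TFR2 signal lay almost wholly in retained-intron transcripts, 98.3% of it in undifferentiated and 99.2% in differentiated libraries. SLC11A2 and IREB2 did not pass the test. That is 6 of the 8 tested members called (4 higher and 2 lower), against 51.3% of all genes, and 6 whose groups did not overlap, against 49.6% of all genes. Their log2 fold changes had a median of 0.25, against 0.095 over all genes tested. The means stood the other way, at 0.13 for the members and 0.17 over all genes. Without replicate 22, 6 members were called, 4 higher and 2 lower, where 56.7% of all genes were called. In lane 8 alone it was 4, with 3 higher and 1 lower (37.0% of all genes). After median-of-ratios scaling it was 6, with 3 higher and 3 lower (52.8%), as FTH1 lost its call and IREB2 passed. After quantile normalization it was 7, with 4 higher and 3 lower (54.3%).

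**Figure D1:**
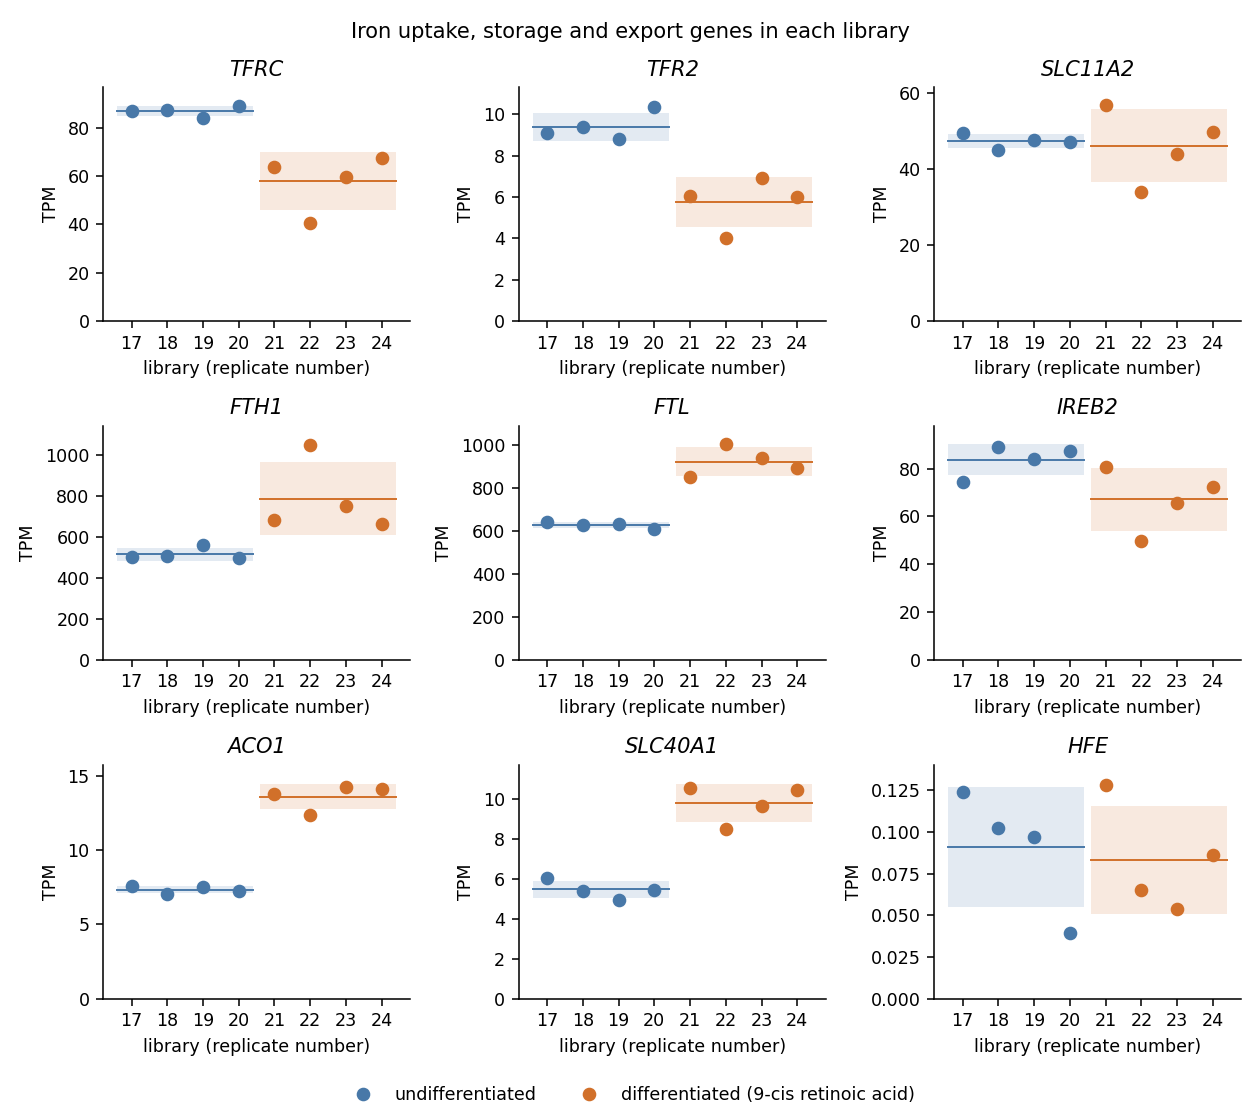
Gene TPM (y axis, from 0) in each library (x axis, replicate number) for the 9 members with values; points are libraries, lines the group means and bands 1 SD (n = 4). FTL, FTH1, ACO1 and SLC40A1 lie higher and TFRC and TFR2 lower in all 4 differentiated libraries, while SLC11A2, IREB2 and HFE overlap.

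TFRC, the main transferrin receptor (ENSG00000072274, chr3:196027183-196082189, minus strand), stood at 86.9, 87.3, 84.0 and 88.9 TPM in undifferentiated replicates 17 to 20 and at 63.7, 40.6, 59.7 and 67.4 TPM in differentiated replicates 21 to 24. The undifferentiated libraries lay close together, every differentiated library was below them, and replicate 22 was far below the other 3. The mean went from 86.8 ± 2.02 to 57.8 ± 11.95 TPM (SD, n = 4), a log2 fold change of -0.60 ± 0.14 (SE) with a limma adjusted p of 0.00811. The unadjusted exact two-sided permutation p was 0.0286, the smallest that 4 against 4 libraries can give. After adjustment the permutation p was 0.0576, which is not a call. Without replicate 22 the difference was smaller but its error smaller too, at -0.44 with a limma adjusted p of 1.37e-04. With lane 8 alone, which leaves 2 undifferentiated libraries, it was -0.60 and lost its call (limma adjusted p 0.0679).

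Most TFRC RNA was in transcripts that hold the hairpins. These 3 transcripts summed to 65.9, 72.7, 70.1 and 71.9 TPM in the undifferentiated libraries and to 56.8, 36.5, 52.5 and 55.6 TPM in the differentiated ones, again without overlap. The full-length form TFRC-201 (5111 bases) made up 78.7% ± 2.26 of the gene in undifferentiated and 86.0% ± 4.31 in differentiated libraries. That difference of 7.29 percentage points did not pass (limma adjusted p 0.136). Retained-intron transcripts of TFRC averaged 12.6% and 7.99% of the gene, a difference that was not tested.

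TFR2, a second transferrin receptor best known as an iron sensor of liver and red-cell precursors (ENSG00000106327, chr7:100620416-100642779, minus strand), gave 9.10, 9.36, 8.79 and 10.4 TPM in the undifferentiated and 6.06, 4.03, 6.94 and 5.98 TPM in the differentiated libraries. The groups did not overlap. The mean went from 9.40 ± 0.675 to 5.75 ± 1.23 TPM (log2 fold change -0.64 ± 0.14, limma adjusted p 0.00477). Without replicate 22 the differentiated mean was 6.33 ± 0.531 TPM and the log2 fold change -0.51 (limma adjusted p 0.00101). This RNA was not receptor mRNA as annotated: 9 retained-intron transcripts held 98.3% of the TFR2 signal in undifferentiated and 99.2% in differentiated libraries. The 3 protein-coding transcripts summed to 0.0484 ± 0.0477 and 0.0504 ± 0.0742 TPM, so with protein-coding transcripts alone TFR2 was too low to be tested. The forms at 10% or more of the gene in either group were TFR2-212 (2421 bases, 34.6% and 35.1% of the gene in the 2 groups), TFR2-211 (17.9% and 15.3%), TFR2-207 (11.8% and 13.0%) and TFR2-209 (8.19% and 10.1%).

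SLC11A2, the divalent metal transporter that moves iron out of the endosome (ENSG00000110911, chr12:50979401-51028566, minus strand), stood at 49.4, 44.9, 47.6 and 47.0 TPM in the undifferentiated libraries and at 56.8, 33.97, 44.0 and 49.6 TPM in the differentiated ones. The differentiated libraries reached both above and below all undifferentiated ones. The means were 47.2 ± 1.86 and 46.1 ± 9.62 TPM, with a log2 fold change of -0.057 ± 0.14 (95% interval -0.38 to 0.26, limma adjusted p 0.763). The sign turned without replicate 22 (0.078, limma adjusted p 0.455). Changes of up to about the size seen in IREB2 lie inside that interval, so these libraries do not show that SLC11A2 stayed level.

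SLC11A2 is made with and without the hairpin, through different 3′ ends. The form with it, SLC11A2-202 (4132 bases), stood at 10.3, 10.4, 9.79 and 9.31 TPM and then at 10.5, 5.06, 9.36 and 8.11 TPM, with overlap. Its share of the gene was 21.2% ± 1.48 and 17.8% ± 2.78, a difference of -3.39 percentage points that did not pass (limma adjusted p 0.324). The form without it, SLC11A2-201 (4011 bases), held 25.2% and 27.8%. Summed over all 5 transcripts with the hairpin, the levels were 13.1, 12.3, 12.5 and 12.6 TPM in undifferentiated and 12.1, 10.3, 11.8 and 11.5 TPM in differentiated libraries, which do not overlap. This sum was not tested. Transcripts not annotated as protein coding made up 44.7% and 45.3% of SLC11A2.

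FTH1, the ferritin heavy chain (ENSG00000167996, chr11:61959718-61967660, minus strand), was among the most abundant members. It gave 498, 503, 562 and 495 TPM in the undifferentiated libraries and 679, 1047, 749 and 664 TPM in the differentiated ones. All differentiated libraries were higher, and replicate 22 lay far above the other 3. The mean went from 515 ± 31.5 to 785 ± 179 TPM, a log2 fold change of 0.58 ± 0.14 (limma adjusted p 0.00766). The exact permutation p was 0.0286 unadjusted and 0.0576 adjusted. Without replicate 22 the differentiated mean was 697 ± 45.2 TPM and the log2 fold change 0.44 (limma adjusted p 5.78e-04). The call was lost in lane 8 alone (0.55, limma adjusted p 0.0748) and after median-of-ratios scaling (0.45, limma adjusted p 0.0792).

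FTL, the ferritin light chain (ENSG00000087086, chr19:48965301-48966878, plus strand), was also higher, with less spread between libraries. It stood at 641, 630, 633 and 611 TPM and then at 852, 1008, 941 and 896 TPM. The mean went from 629 ± 12.7 to 925 ± 66.6 TPM (log2 fold change 0.55 ± 0.05, limma adjusted p 4.61e-05). FTL passed under all 18 alternative settings of the limma fit, but not under the exact permutation test (adjusted permutation p 0.0576). FTL has 1 annotated transcript, FTL-201, which carries the hairpin. Ferritin has many processed pseudogenes: 25 matched copies of FTH1 and 16 of FTL, which summed to 0.120% to 0.367% and 0.130% to 0.675% of the gene with its pseudogenes in a library, and adding them to their parent gene changed no call.

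The ratio of heavy to light chain did not separate the groups. FTH1 divided by FTL gave 0.777, 0.800, 0.888 and 0.810 in the undifferentiated libraries and 0.797, 1.04, 0.796 and 0.741 in the differentiated ones. The groups overlapped, and only replicate 22 had more FTH1 than FTL.

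Of the tested FTH1 transcripts, FTH1-207 was the 1 whose share passed the test. FTH1-207 (742 bases) starts from an exon, chr11:61966989-61967166, that lies inside intron 1 of the main form FTH1-201 and so lacks the first exon with the hairpin. Its annotated coding sequence begins in exon 2 and is 339 bases long, against 549 bases in FTH1-201. FTH1-207 made up 39.8%, 39.2%, 30.2% and 40.9% of FTH1 in the undifferentiated libraries and 23.3%, 11.2%, 10.95% and 9.09% in the differentiated ones. The mean share fell by 23.9 percentage points (from 37.5% ± 4.94 to 13.6% ± 6.52, limma adjusted p 0.0190). It was the 1 called among 15 member transcripts tested, where 550 of 22951 transcripts (2.40%) passed over all genes. The call was lost in lane 8 alone (-21.9 points, limma adjusted p 0.254) and without replicate 17, 18, 20 or 23 (-23.3 to -22.7 points, limma adjusted p 0.0618 to 0.0677), with a difference nearly as large from fewer libraries.

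In TPM, FTH1-207 went from 198, 197, 170 and 203 to 158, 117, 82.0 and 60.4, so all differentiated libraries were lower even though the gene was higher. The 2 main forms that carry the hairpin, FTH1-201 and FTH1-202, were listed at higher TPM in all differentiated libraries. FTH1-201 (1229 bases) went from 282, 287, 295 and 277 TPM to 379, 729, 503 and 411 TPM, with a share of 55.5% ± 2.02 and 63.6% ± 6.13 (limma adjusted p 0.192 for the share). FTH1-202 (786 bases, all of them also in FTH1-201) was listed at 0 in replicates 17, 18 and 20 and at 75.1 TPM in replicate 19, and at 124, 170, 139 and 172 TPM in the differentiated libraries. Its share missed the threshold (3.34% and 19.7%, limma adjusted p 0.0532) and passed it without replicate 19 (limma adjusted p 0.00386) or with untransformed shares (limma adjusted p 0.0427). Summed over the 9 transcripts with the hairpin, FTH1 levels were 295, 298, 385 and 286 TPM and then 514, 919, 660 and 598 TPM, or 61.2% and 85.4% of the gene. Of the bases of FTH1-207, 76.0% are also in FTH1-201, the split between such forms is estimated by the software, and the deposited values give no error for it.

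**Figure D2:**
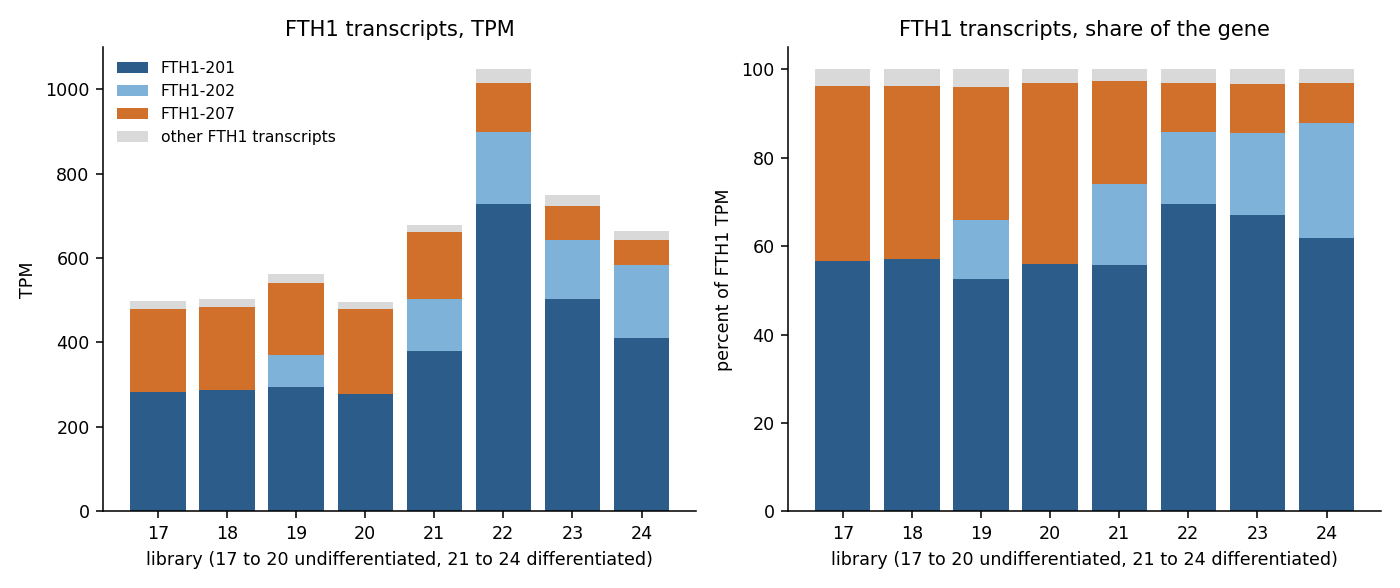
FTH1 transcripts by library (x axis), stacked as TPM (left) and as a percent of the gene's TPM (right). The share of FTH1-207, which lacks the hairpin, is 30.2% to 40.9% in undifferentiated and 9.09% to 23.3% in differentiated libraries, and FTH1-202 is listed at 0 in 3 of the 4 undifferentiated libraries.

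The regulatory proteins that read the hairpins differed from each other. ACO1, which is a cytosolic aconitase when it holds an iron-sulfur cluster and IRP1 when it does not (ENSG00000122729, chr9:32384603-32454769, plus strand), stood at 7.60, 7.03, 7.48 and 7.22 TPM in the undifferentiated libraries and at 13.7, 12.3, 14.2 and 14.1 TPM in the differentiated ones. The groups were far apart, and of the tested members ACO1 had the largest difference relative to its standard error. The mean went from 7.33 ± 0.255 to 13.6 ± 0.870 TPM (log2 fold change 0.81 ± 0.06, limma adjusted p 1.39e-05). ACO1 was called under all 18 alternative settings of the limma fit, but not under the exact permutation test (adjusted permutation p 0.0576). Its longest transcript, ACO1-201 (7466 bases), held 12.98% and 12.03% of the gene. The other 2, ACO1-202 and ACO1-203 (3601 and 3618 bases), are nearly alike, and in each library 1 of them was listed at 0 and the other held all the TPM of the pair. Their sum was 6.65, 6.01, 6.60 and 6.28 TPM and then 11.8, 11.4, 12.5 and 12.1 TPM, higher in all 4 differentiated libraries whichever of them the reads were given to.

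IREB2, or IRP2, which iron removes through the ubiquitin ligase subunit FBXL5 (ENSG00000136381, chr15:78437431-78501456, plus strand), stood at 74.4, 89.2, 84.0 and 87.2 TPM and then at 80.8, 49.6, 65.7 and 72.5 TPM. Replicate 21 lay inside the undifferentiated range and the other 3 differentiated libraries below it. The means were 83.7 ± 6.56 and 67.2 ± 13.2 TPM, with a log2 fold change of -0.33 ± 0.14 (95% interval -0.66 to -0.0082) that missed the threshold (limma adjusted p 0.0815, unadjusted exact permutation p 0.0571). Without replicate 22 the log2 fold change shrank to -0.20 (limma adjusted p 0.0903). It passed in 3 of 18 alternative settings of the limma fit: after median-of-ratios scaling (-0.46, limma adjusted p 0.00400), after quantile normalization (-0.43, 0.0125) and without replicate 21 (-0.43, 0.0294). Its long form IREB2-201 (6354 bases) held 77.8% and 78.3% of the gene, and IREB2-204, annotated with 268 bases, 12.5% and 13.9%.

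The ratio of the 2 regulators was lower in differentiated cells, where ACO1 was called higher and IREB2 was not called. With the ACO1 groups this far apart, the ratio adds no separate evidence. IREB2 divided by ACO1 was 9.79, 12.7, 11.2 and 12.1 in the undifferentiated libraries and 5.88, 4.02, 4.62 and 5.13 in the differentiated ones. In every library IREB2 RNA exceeded ACO1 RNA per length.

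SLC40A1, ferroportin, the known iron exporter of animal cells (ENSG00000138449, chr2:189560579-189583758, minus strand), was the lowest of the tested members in undifferentiated cells, at 6.04, 5.41, 4.96 and 5.45 TPM. In differentiated libraries it stood at 10.6, 8.49, 9.67 and 10.5 TPM, all above the undifferentiated ones. The mean went from 5.46 ± 0.444 to 9.80 ± 0.962 TPM (log2 fold change 0.74 ± 0.09, limma adjusted p 1.67e-04). SLC40A1 was called under all 18 alternative settings of the limma fit, but not under the exact permutation test after adjustment. The coding form SLC40A1-201 (3442 bases), with the 5′ hairpin, gave 4.31, 4.23, 4.53 and 4.45 TPM and then 9.78, 8.43, 8.20 and 8.71 TPM. Its share ranged from 71.4% to 91.3% and from 83.2% to 99.3% (limma adjusted p 0.313). The retained-intron form SLC40A1-207 held 10.8% and 4.58%. With protein-coding transcripts alone the log2 fold change of SLC40A1 was 0.88.

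HFE, which binds TFRC and takes part in iron sensing in the liver (ENSG00000010704, chr6:26087281-26098343, plus strand), was near 0 throughout. It gave 0.124, 0.103, 0.0973 and 0.0394 TPM in the undifferentiated and 0.128, 0.0651, 0.0538 and 0.0861 TPM in the differentiated libraries, nearly all in HFE-207, and was not tested. Without the depth, an error for values this low cannot be given. B2M, the partner chain of HFE and of MHC class I proteins, was high and rose from 431 ± 7.57 to 1844 ± 145 TPM (log2 fold change 2.09 ± 0.06, limma adjusted p 3.81e-08).

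**Figure D3:**
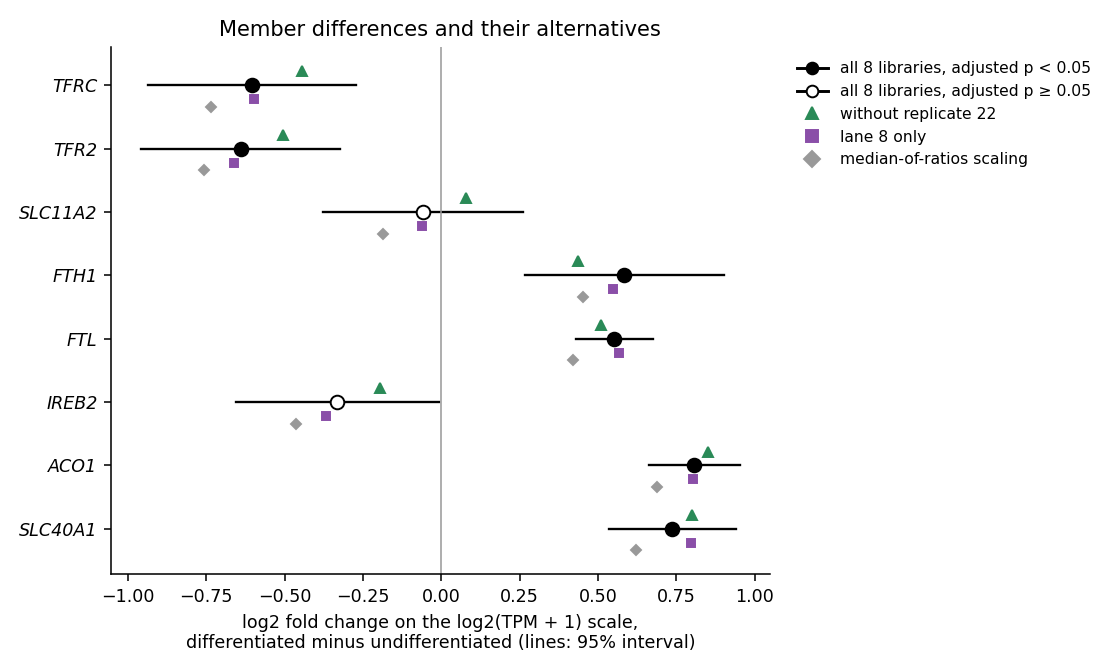
Log2 fold change (differentiated minus undifferentiated, log2(TPM + 1) scale) of the 8 tested members with all libraries (circles, lines give the 95% interval), without replicate 22, in lane 8 alone and after median-of-ratios scaling. TFRC and TFR2 stay below 0 and FTH1, FTL, ACO1 and SLC40A1 above 0 in each, while SLC11A2 crosses 0 without replicate 22.

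In lane 8 alone, with 2 undifferentiated libraries, the log2 fold changes of TFR2, FTL, ACO1 and SLC40A1 were -0.66, 0.57, 0.80 and 0.80 and kept their calls (limma adjusted p 0.0431, 0.00233, 0.00106 and 0.00296), and that of IREB2 was -0.37 (limma adjusted p 0.184).

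Read by hairpin, the 3 members with a 5′ element (FTH1, FTL and SLC40A1) were all called higher, as 33.9% of all genes were, and of the 2 with a 3′ element TFRC was called lower, as 17.4% of all genes were, and SLC11A2 was not called. In lane 8 alone the calls of FTH1 and TFRC were lost (limma adjusted p 0.0748 and 0.0679), and after median-of-ratios scaling that of FTH1 (0.0792). Outside the members, EPAS1, which held the form with the extra base, was called lower, as given below. ACO1, IREB2 and TFR2 held no match, and 1 of them was called higher, 1 not called and 1 lower. These counts are small and describe RNA levels, while a 5′ element is known to act on translation, which was not measured.

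The proportions of uptake to export and to storage are given as a description. TFRC divided by SLC40A1 was 14.4, 16.1, 16.9 and 16.3 in undifferentiated and 6.03, 4.78, 6.17 and 6.44 in differentiated libraries. TFRC divided by FTH1 was 0.174, 0.173, 0.150 and 0.180 and then 0.0938, 0.0388, 0.0797 and 0.102. Since TFRC was lower and both SLC40A1 and FTH1 higher without overlap, these ratios could not overlap and add no separate evidence. Without replicate 22 the differentiated means were 6.21 and 0.0917. A ratio of 2 genes in 1 library does not change with the scaling of that library.

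**Figure D4:**
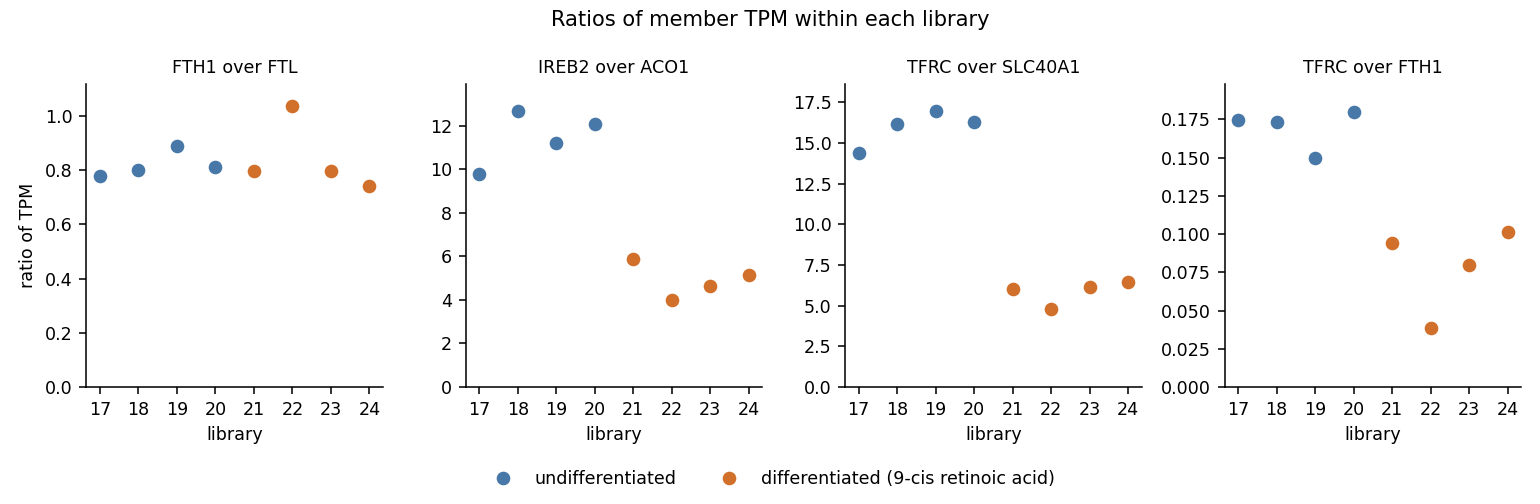
Ratios of member TPM within each library (x axis, replicate number; y axes start at 0). FTH1 over FTL overlaps between the groups, and IREB2 over ACO1, TFRC over SLC40A1 and TFRC over FTH1 are lower in all 4 differentiated libraries.

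In undifferentiated cells the order by TPM was FTL, FTH1, TFRC, IREB2, SLC11A2, TFR2, ACO1, SLC40A1 and HFE. TFRC and IREB2 overlapped there, and all other neighbours were apart in their 4 libraries. In differentiated cells the order was FTL, FTH1, IREB2, TFRC, SLC11A2, ACO1, SLC40A1, TFR2 and HFE. FTL overlapped FTH1, IREB2 overlapped TFRC and TFRC overlapped SLC11A2, whereas TFR2 now lay below ACO1 and SLC40A1.

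The rest of the pathway was described with 6 lists of 91 other iron genes, of which 74 were tested, 36 were called higher and 8 lower (59.5% called, against 51.3% of all genes), and the median over them was 0.22 on the log2 scale. The split depended on the scaling: 22 were higher and 18 lower after median-of-ratios scaling, and 26 and 21 after quantile normalization.

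Among 21 other uptake genes, 15 were tested, 7 were called higher and 1 lower, with a median of 0.052, where 33.9% and 17.4% of all genes were called higher and lower. The split turned with the scaling, to 6 higher and 5 lower after median-of-ratios scaling (median -0.079) and 5 higher and 6 lower after quantile normalization (median -0.036). CYBRD1, a ferric reductase of the plasma membrane, rose from 6.32 ± 0.914 to 31.6 ± 3.46 TPM (log2 fold change 2.16 ± 0.11, limma adjusted p 1.40e-06). SLC22A17, a receptor of the siderophore carrier lipocalin 2, rose from 34.6 ± 0.612 to 73.8 ± 3.26 TPM (1.07 ± 0.04), and MELTF, melanotransferrin, a membrane-bound relative of transferrin, from 15.8 ± 1.07 to 31.6 ± 3.46 TPM (0.95 ± 0.09). The metalloreductase STEAP1 fell from 3.49 ± 0.505 to 0.855 ± 0.0166 TPM (-1.27 ± 0.11, limma adjusted p 2.46e-05). STEAP3, the reductase that works beside TFRC in the endosome, was 5.56 and 5.49 TPM and was not called.

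Of 9 storage and chaperone genes, 8 were tested, 2 were called higher and 0 lower, with a median of -0.017, although 3 were called lower without replicate 22. NDFIP1, an adaptor that directs SLC11A2 to degradation, rose from 51.0 ± 1.96 to 74.5 ± 2.34 TPM (0.54 ± 0.04), and PCBP4 from 48.4 ± 1.73 to 69.8 ± 5.18 TPM (0.52 ± 0.06). The iron chaperones PCBP1 and PCBP2, which hand iron to ferritin, had means of 121 and 110 TPM and of 555 and 512 TPM and were not called. Mitochondrial ferritin, FTMT, was listed at 0 in all libraries.

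Of 6 other export genes, only FLVCR1, first described as a haem exporter, was tested. It fell from 28.6 ± 1.28 to 23.5 ± 2.76 TPM (-0.28 ± 0.08, limma adjusted p 0.0214), and lost its call in lane 8 alone (limma adjusted p 0.153) and without replicate 18, 20 or 23 (limma adjusted p 0.0507 to 0.0612). Ceruloplasmin, CP, the ferroxidase that works with ferroportin, averaged 0.0735 TPM in undifferentiated and 1.82 TPM in differentiated libraries without overlap and lay under the filter. In lane 8 alone, where the mean runs over fewer undifferentiated libraries, CP passed the filter and was called higher (1.40, limma adjusted p 0.00177) and FLVCR1 was not called, so the list then had 1 higher and 0 lower of 2 tested. CP was picked out after its values were seen.

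Of 14 genes that control iron, 10 were tested and 80.0% of those called, against 51.3% of all genes. Among them 7 were called higher and 1 lower, with a median of 0.48. Beside B2M they included the hypoxia factor HIF1A, which rose from 188 ± 5.39 to 433 ± 41.2 TPM (1.19 ± 0.07), and BMP2, a growth factor that induces hepcidin in liver, from 0.361 ± 0.0961 to 1.99 ± 0.285 TPM (1.13 ± 0.12). EPAS1 (HIF-2 alpha), whose mRNA carries an iron-responsive element, fell from 14.97 ± 0.346 to 7.09 ± 1.009 TPM (-0.99 ± 0.09, limma adjusted p 3.23e-05). FBXL5, the iron-sensing subunit that removes IREB2, was 32.4 and 29.4 TPM and was not called.

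All 27 mitochondrial and iron-sulfur genes were tested, and 12 were called higher and 5 lower, with a median of 0.11. That is 63.0% called, against 51.3% of all genes. The higher calls did not hold in number under other scalings (5 higher and 9 lower after median-of-ratios scaling). FDX2, a ferredoxin of cluster assembly, rose from 11.03 ± 0.911 to 19.8 ± 1.52 TPM (0.79 ± 0.08), and its reductase FDXR from 11.2 ± 0.949 to 17.6 ± 1.17 TPM (0.61 ± 0.07). The co-chaperone HSCB rose from 21.1 ± 1.99 to 33.9 ± 0.773 TPM (0.67 ± 0.07), but with protein-coding transcripts alone its sign turned (-0.24, limma adjusted p 0.156). The transporter ABCB8 gave 45.0 ± 4.78 and 68.7 ± 16.8 TPM (0.57 ± 0.18, limma adjusted p 0.0270), with overlapping groups. Its call was lost in lane 8 alone (limma adjusted p 0.0897) and without replicate 18, 19, 20, 21, 23 or 24 (limma adjusted p 0.0547 to 0.0698).

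Of 14 haem genes, 13 were tested, 8 were called higher and 0 lower, with a median of 0.32, falling to 3 higher and 1 lower after median-of-ratios scaling. Before that scaling 61.5% of those tested were called, against 51.3% of all genes. BLVRB, biliverdin reductase B, rose from 3.29 ± 0.355 to 15.2 ± 0.543 TPM (1.92 ± 0.08, limma adjusted p 3.01e-07), and BLVRA from 63.7 ± 2.88 to 87.2 ± 3.63 TPM (0.45 ± 0.05). FECH, which inserts iron into haem, rose from 19.6 ± 0.343 to 27.9 ± 1.44 TPM (0.49 ± 0.05), and UROD from 59.05 ± 1.47 to 76.9 ± 6.43 TPM (0.37 ± 0.06), a call that median-of-ratios scaling ended (0.24, limma adjusted p 0.0883). The haem oxygenase HMOX1, which frees iron from haem, averaged 1.08 and 1.37 TPM and was not called.

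**Figure D5:**
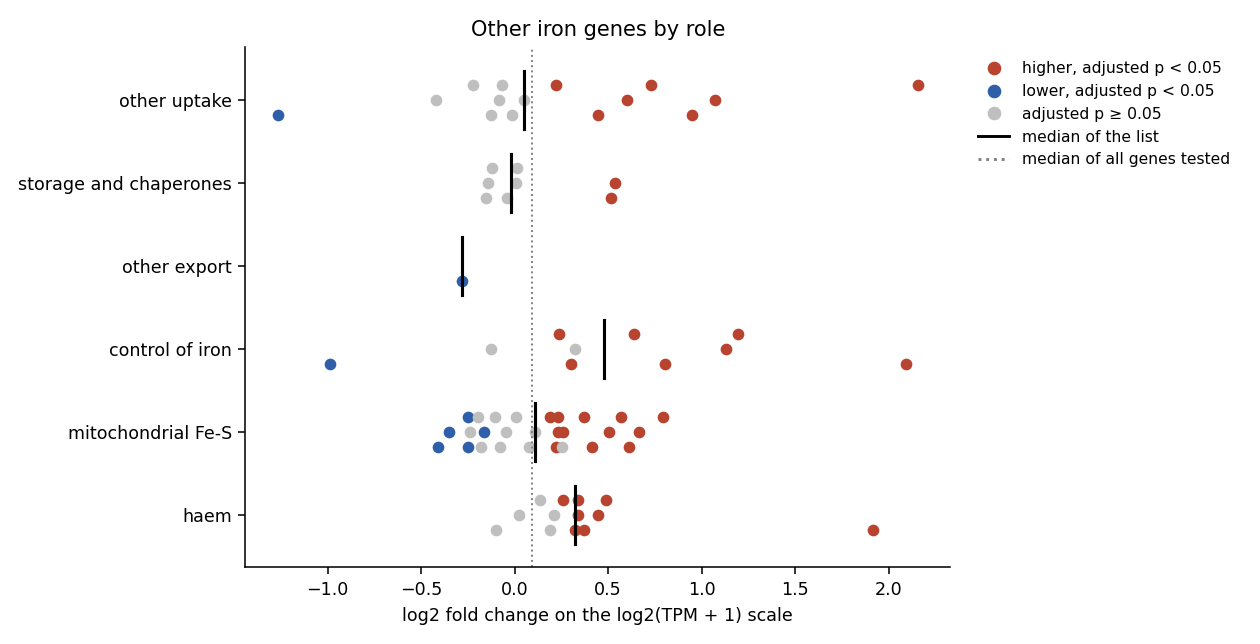
Log2 fold changes of the 74 other iron genes tested, by role, with the median of each list (bars) and of all genes (dotted line); coloured points passed an adjusted p under 0.05. Control and haem genes have medians of 0.48 and 0.32. Uptake, storage, mitochondrial and control genes lie on both sides of 0, with 1 control gene, EPAS1, called lower.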

How the data were processed

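The authors deposited TPM per Ensembl transcript for the 8 libraries, each summing to 1000000. FastQC 0.11.2, Salmon and build GRCh37 are named, per the submitters' processing notes. The version of Salmon, its annotation and its strand setting were not given in the sources used here. Depth is therefore unknown, and no counting interval or limit for a 0 can be given. Salmon divides reads between similar sequences, so values of overlapping transcripts and of ferritin genes with pseudogenes are estimates.

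Of 194993 transcripts, 180930 (92.8%) matched GENCODE 29 (GRCh38) by identifier without version, holding 93.2% to 95.0% of the TPM of a library. All positions are on GRCh38. TPM were summed per gene, and those averaging 1 TPM or more were tested on log2(TPM + 1) with limma 3.58.1 in R 4.3.3 (eBayes with trend, group as the only term, two-sided, Benjamini-Hochberg over all 17077 genes, called at an adjusted p under 0.05). Fold changes are on that scale, which understates changes of low genes. Transcript shares were tested with limma on the arcsine square root, for transcripts at 10% to 90% of a gene that averaged at least 5 TPM in both groups, with a call also needing 10 percentage points. The steps were run on simulated data as a check of the code. A high recovery was required there only for changes larger than those called among the members. Figures and tables were made in Python 3.11.15 with matplotlib 3.10.9.

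The members, the gene lists and the tests were chosen with earlier results of these data known. Every member was reported, with up to 4 called genes of each other list by size of change and the transcripts at 10% or more of a member. STEAP3, PCBP1, PCBP2, FTMT, FBXL5 and HMOX1 were named beside these for their roles, and CP after its values were seen. Alternatives were other pseudocounts, filters and scalings, no trend, lane 8 alone, protein-coding transcripts alone, added pseudogenes, an exact permutation test and leaving out each library.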

Additional observations from a re-analysis of the deposited data

Results flagged for a closer look

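In 62 groups of 4 libraries (member TPM, transcript shares and ratios), 11 held a library whose gap to the nearest other exceeded Dixon's 95% critical value; chance alone gives about 1 in 20, and values of 1 gene are not independent. FTH1 stood at 562 TPM in undifferentiated replicate 19, against 495 to 503 TPM in the others. In the same library FTH1-202 held 13.4% of FTH1 against 0 in the others, and FTH1-207 30.2% against 39.2% to 40.9%. In differentiated replicate 21, FTH1-207 held 23.3% against 9.09% to 11.2%. ACO1-202 held 87.5% of ACO1 in undifferentiated replicate 17 and 92.6% in differentiated replicate 22, against 0 in the other libraries of each group. Correspondingly ACO1-203 was listed at 0 in those 2 libraries, against 85.4% to 88.2% and 85.5% to 87.8%. IREB2-201 held 84.3% of IREB2 in differentiated replicate 22, against 76.1% to 76.6%. TFR2-209 held 16.0% of TFR2 in differentiated replicate 23, against 7.82% to 8.83%. TFRC-201 held 75.3% of TFRC in undifferentiated replicate 17, against 79.6% to 80.0%.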

How the results depend on the processing

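The exact permutation test, whose smallest adjusted p over all genes was 0.0576, called 0 genes, 0 members and 0 other iron genes, where 8475 genes had an unadjusted p under 0.05 and limma called 8761. Other settings left 6360 to 9724 genes, 4 to 7 members and 32 to 49 other iron genes called. The 4 members were in lane 8 alone. Among member transcripts, 1 was called, 2 with untransformed shares, 0 in lane 8 alone and 0 to 2 when a library was left out. SLC11A2 ranged from -0.16 to 0.078 when a library was left out, changing sign without differentiated replicate 22, and HSCB with protein-coding transcripts alone (-0.24). Outside the permutation test, 136 of 143 refits of members kept their direction and side of the threshold, 3 lost a call, 3 gained one and 1 changed sign. The causes were not tested. No paired analysis was possible because the groups share no replicate numbers. Depth is unknown, so the precision of values near 0, such as HFE, is too.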
